A study of Mus musculus with 33 samples.

Results

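The genes described here lie near the low-coordinate end of the mouse X chromosome, around Clcn5 and Ccdc22. All rows of the gene table placed on the X with a listed start between 6000000 and 9200000 in mm9 were taken, leaving out 2 rows, Tfe3 and Gata1. This gave 74 of the 24391 genes in the table and 74 of its 1063 X-linked genes. Clcn5 and Ccdc22 are not the outermost members: the first listed start belonged to 5430428K19Rik (6029494) and the last to Gm5132 (9149086). The nearest genes outside were Shroom4 (start 5977263) and Dynlt3 (start 9231396). Of the 74 genes, 42 had enough counts for a test of total output and 28 had enough reads over strain variants to compare alleles, at a mean of at least 20 such reads per library. Slc38a5 was the lowest inside that limit, at 20.1, and Cybb the highest outside it, at 12.2. A further 19 had no count in any library.

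Hybrid ES cells (CAST/Ei x 129/Sv/Jae) were compared in 2 lines, 1 with the RepB genotype, named for Repeat B of Xist, and 1 wild type (WT). PolyA RNA was sequenced from each at day 0, as ES cells on feeders, and at days 5, 6, 7, 8 and 10 of differentiation, first as embryoid bodies and from day 4 on gelatin. The edit in RepB and the allele that carries it are not described in the labels, and no other allele or agent is named for either line. Each line had 1 library per day, so the 5 later days stood in for replicates. An adjusted p below 0.05 says that a difference was large beside counting error and a spread over the days of 1 time course. In the share test between the lines that spread was in effect shared by all genes tested, and is not the gene's own. Days with more reads weigh more, so the difference need not hold on each day. Such a p says nothing about other cultures or clones. SDs are over the 5 later days. Reads over strain variants had been assigned to an allele called cas or mus, which are taken to be the CAST/Ei and the 129/Sv/Jae copy. The cas share is the percentage of such reads that were cas.

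In female mammals an X chromosome in each cell is silenced early in development. The noncoding RNA Xist coats the chromosome that makes it, and most genes on that chromosome stop being transcribed over the following days of differentiation. Different tandem repeats of Xist bind different protein partners, and Repeat B is known for bringing Polycomb complexes to the inactive X. A gene expressed equally from both alleles has a cas share near the middle of the scale, and silencing of the mus copy moves the share upwards.

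Libraries of the RepB line held 3594551 (day 8) to 15231930 (day 0) counts and those of the WT line 7763633 (day 8) to 17773138 (day 5), so shares are less precise in RepB on the later days. A gene with no count is bounded only by 3 counts, which was 0.194 to 0.889 CPM, counts scaled to a common depth by the library's TMM-adjusted total, in RepB libraries and 0.164 to 0.387 CPM in WT libraries. Xist itself was made mostly from the mus allele. Its cas share was 4.54, 18.6, 17.1, 13.6, 12.3 and 6.42% at days 0, 5, 6, 7, 8 and 10 in RepB, and 3.19, 1.89, 3.17, 2.57, 4.32 and 2.61% in WT. The 7 ES cell markers summed to 453 to 3367 CPM over the later days in RepB, against 274 to 2588 CPM in WT, and to 5172 CPM (RepB) and 4581 CPM (WT) at day 0. The 8 fibroblast markers summed to 50.5 to 13940 CPM over the later days in RepB, against 61.9 to 9223 CPM in WT, and to 774 CPM (RepB) and 647 CPM (WT) at day 0. The list did not move as one, so its sum is no measure of fibroblasts. Thy1 fell from 120.8 CPM at day 0 to 6.40 CPM at day 10 in RepB, and from 101.1 to 4.68 CPM in WT. Col1a1 rose from 333.7 to 5719 CPM in RepB and from 285.5 to 3563 CPM in WT. Only Thy1 ended below its day 0 level. The 4 Y-linked markers summed to 2.85 CPM in RepB and 3.85 CPM in WT at day 0 and to at most 0.14 CPM (RepB) and 0.11 CPM (WT) later, and Hba-a1 was at 0 in every library. The part of these cells in the values below was not tested. In bulk RNA, fewer cells that silence a gene and weaker silencing in each cell cannot be told apart. Whether the Xist reads of the cas allele in RepB bear on the cas shares of other genes was not tested.

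The region began with medians close to even and moved towards the cas allele much further in WT than in RepB. The median cas share of its genes was 53.0, 58.8, 64.8, 67.3, 64.8 and 58.9% at days 0, 5, 6, 7, 8 and 10 in RepB, over 23 to 27 genes with at least 10 allelic reads in the library. In WT the same medians were 51.1, 79.8, 83.9, 88.7, 91.2 and 92.7%, over 25 to 28 genes. The WT median was higher on each later day than the one before. The RepB median was highest at day 7, over 25 genes, and lower again by day 10, over 23 genes. The gap, RepB minus WT, was -21.02, -19.1, -21.4, -26.4 and -33.8 percentage points over the 5 later days. Averaged over those days the median was 62.9 ± 3.85% in RepB and 87.3 ± 5.33% in WT (SD, n = 5 days each). Pooling all allelic reads of the 28 genes gave 65.3% cas at day 10 in RepB (1380 reads, exact 95% interval 62.7 to 67.8%), against 88.0% in WT (2995 reads, 86.8 to 89.2%).

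**Figure D1:**
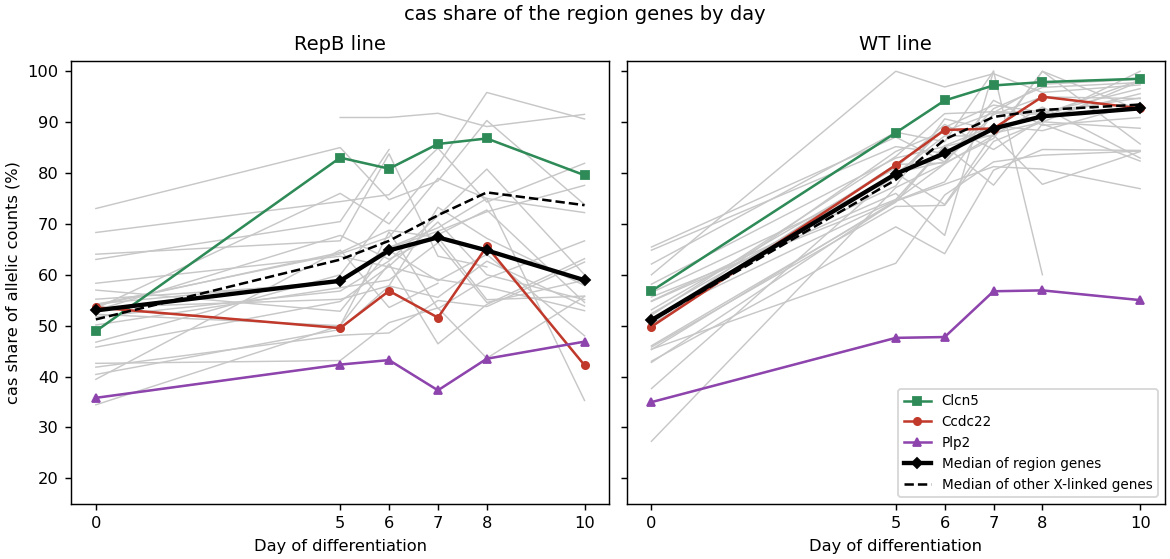
The cas share of allelic counts (%) of each region gene with at least 10 allelic reads in a library (grey lines) by day of differentiation, in RepB (left) and WT (right), with the median of the region genes (black), the median of other X-linked genes (dashed) and Clcn5, Ccdc22 and Plp2 in colour. The region median ends at 58.9% in RepB and at 92.7% in WT.

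The cas share was lower in RepB than in WT for 22 of the 28 genes over days 5 to 10, where 1.91% of all 10332 genes tested were lower (edgeR quasi-likelihood test of allele by genotype with days as blocks). The share was higher in RepB for 0 of 28, where 0.329% of all genes were higher. At an unadjusted p under 0.05, 24 genes were lower and 0 higher, and by DESeq2, which gave 2 of the 28 no adjusted p, 12 were lower and 0 higher. The fitted log2 odds ratio, RepB over WT, was below 0 in all 28, with a median of -1.85, against -0.05 over all genes tested. Of 23 genes with a share on all 5 later days in both lines, 22 were lower in RepB on 5 of 5 days, and in 18 the values of the lines did not overlap. Neither count is set beside a share over all genes, so neither is read as a trait of the region. At day 0, with 1 library in each line and the error taken from the other days, the test called 0 of 28 lower and 0 higher in RepB, as against 0.145% of all genes in each direction, and found 0 and 0 at an unadjusted p under 0.05. This does not show that the starting shares were equal. The mean share over the later days reached 75% in 6 genes in RepB and in 26 in WT, and stayed under 60% in 11 genes in RepB and in 1, Plp2, in WT.

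**Figure D2:**
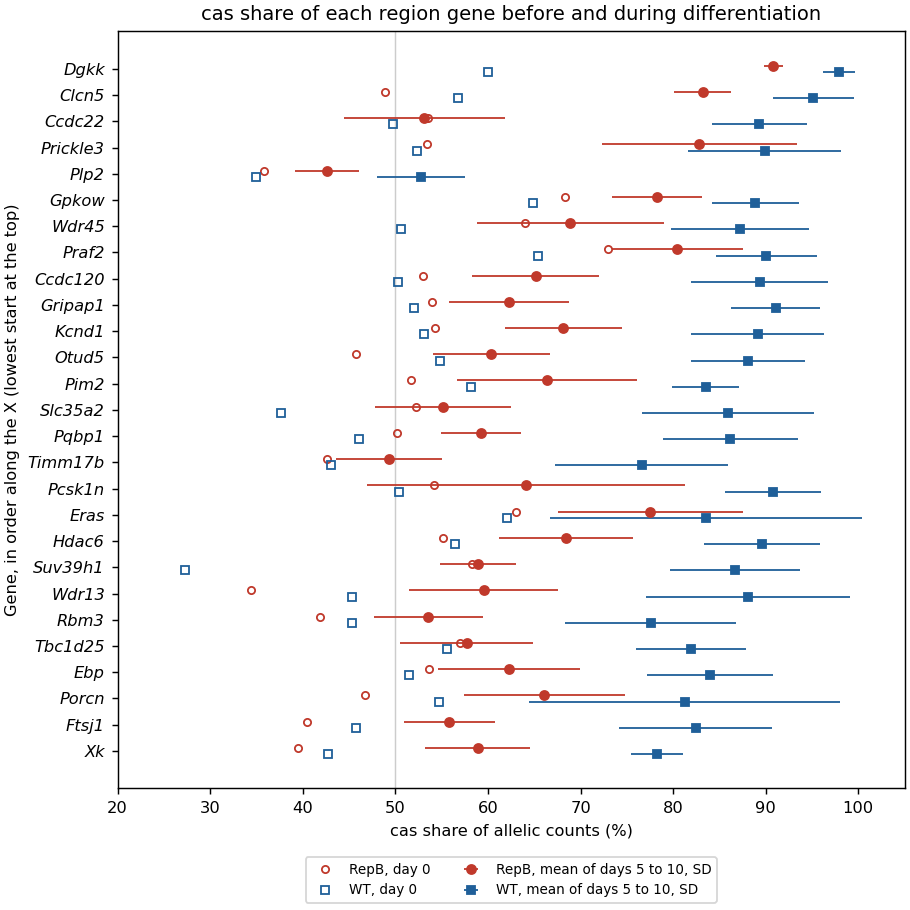
Mean cas share of allelic counts (%) over days 5 to 10 with its SD over days (filled) and the share at day 0 (open) for the 27 genes with a later share in both lines, in their order along the X, with RepB as red circles above WT as blue squares. Ccdc22 lies at 53.2% in RepB and 89.3% in WT, and Dgkk at 90.8% and 97.9%.

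Ccdc22, part of a complex that sorts membrane proteins at endosomes, showed the largest gap of the 27 genes. Its first listed exon is at chrX:7170935-7171293 (mm9, minus strand). The cas share was 53.6, 49.5, 56.8, 51.6, 65.6 and 42.2% at days 0, 5, 6, 7, 8 and 10 in RepB, from 45 to 265 allelic reads a library, and 49.8, 81.6, 88.5, 88.7, 95 and 92.7% in WT, from 60 to 286 reads. Every later WT value lay above every RepB value, and the RepB values lay on both sides of the day 0 share. Over the later days the share was 53.2 ± 8.70% in RepB and 89.3 ± 5.12% in WT (SD, n = 5 days each), a difference of -36.1 points. The log2 odds ratio, RepB over WT, was -2.76 ± 0.30 (SE), with an adjusted p of 4.8e-17. The mus allele itself gave 7.97, 9.77, 8.39, 10.6, 6.23 and 7.24 CPM in RepB, against 6.86, 2.47, 2.23, 1.52, 0.387 and 0.712 CPM in WT. Output of the mus copy in RepB thus stayed between 6.23 and 10.6 CPM throughout, while in WT it was below its day 0 level on each later day. Ccdc22 overlaps Foxp3, the regulator of regulatory T cells, in the RefSeq annotation, and strand handling in counting is not stated. Foxp3 held at most 0.0648 CPM in RepB and 1.17 CPM in WT.

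The promoter windows of 4 genes are shown for the gene with the largest gap, for the neighbours Pqbp1 and Timm17b, which share a start region and had nearly the same gap, and for Clcn5, which was largely cas in both lines. Each runs from 250 bases before to 50 bases after the start of a RefSeq transcript, in the GRCm38.p6 build and not the mm9 of the counts, 5′ to 3′ on the gene's own strand. Capitals mark matches on either strand to the letters GGGCGG, known as the GC box, to those of the promoter element CCAAT, to TATAAA, as in a TATA box, to CACGTG, an E-box, or to ATGGCGG, the core of the YY1 motif. The GC and CCAAT boxes are known as common elements of promoters without a TATA box. The windows are chrX:7605371-7605670 (minus) for Ccdc22, chrX:7899220-7899519 (minus) for Pqbp1, chrX:7899086-7899385 (plus) for Timm17b and chrX:7319309-7319608 (minus) for the upstream start of Clcn5.
Ccdc22: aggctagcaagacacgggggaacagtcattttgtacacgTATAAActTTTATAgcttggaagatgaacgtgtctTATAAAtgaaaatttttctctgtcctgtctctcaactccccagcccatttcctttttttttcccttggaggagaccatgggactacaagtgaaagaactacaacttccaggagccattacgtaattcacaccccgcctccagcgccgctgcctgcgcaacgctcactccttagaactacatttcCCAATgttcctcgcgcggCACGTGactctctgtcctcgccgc
Pqbp1: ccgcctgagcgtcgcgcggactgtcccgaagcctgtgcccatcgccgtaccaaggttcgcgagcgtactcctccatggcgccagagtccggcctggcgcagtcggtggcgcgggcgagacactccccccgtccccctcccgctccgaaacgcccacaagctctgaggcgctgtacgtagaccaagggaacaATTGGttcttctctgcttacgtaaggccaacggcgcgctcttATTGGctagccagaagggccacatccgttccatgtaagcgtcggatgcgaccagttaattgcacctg
Timm17b: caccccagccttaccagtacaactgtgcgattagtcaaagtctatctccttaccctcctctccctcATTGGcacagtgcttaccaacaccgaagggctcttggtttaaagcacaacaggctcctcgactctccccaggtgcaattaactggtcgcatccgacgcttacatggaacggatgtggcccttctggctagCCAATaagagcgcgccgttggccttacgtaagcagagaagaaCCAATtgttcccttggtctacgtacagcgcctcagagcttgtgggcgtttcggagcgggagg
Clcn5: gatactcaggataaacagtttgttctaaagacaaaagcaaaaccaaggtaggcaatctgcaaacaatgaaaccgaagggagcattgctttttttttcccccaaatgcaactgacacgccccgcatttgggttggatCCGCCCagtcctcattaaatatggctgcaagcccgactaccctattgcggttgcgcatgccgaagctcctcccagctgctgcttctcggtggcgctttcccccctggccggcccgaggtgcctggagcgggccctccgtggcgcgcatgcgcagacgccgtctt
The Pqbp1 and Timm17b windows share 166 bases on opposite strands, and the paired CCAAT boxes in that stretch are the same letters read from either side. The Ccdc22 window holds 3 TATA box matches, 1 CCAAT box and 1 E-box. RefSeq windows were matched for 49 of the 74 genes. For 24 of the 28 genes with allelic data there were 28 windows, which held a median of 16 CG dinucleotides (range 3 to 39), against 7 in all 32851 windows and 7 in the 1223 of the X. A GC box was present in 53.6% of the 28 windows, in 35.7% of all and in 33.9% of those of the X. In the same order, a CCAAT box was present in 57.1, 37.4 and 45%, and a TATA box in 10.7, 13.6 and 14.6%. An E-box was present in 7.14, 7.15 and 8.59%, and a YY1 core in 14.3, 4.05 and 4.33%. The YY1 core was in 4 of the 28 windows, and both windows of Suv39h1 are among these. The 28 windows belong to genes with enough reads, while the other sets take in silent genes, so the sets are not alike. Matches of different motifs overlapped in 0 places in the 28 windows. These matches describe letters only.

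The 16 members listed for chromatin, transcription and RNA included 7 with allelic data, and the cas share was lower in RepB in 7 of 7, by a median of -26.6 points. Pqbp1, which binds splicing factors, had a share of 59.2 ± 4.33% in RepB and 86.2 ± 7.30% in WT (log2 odds ratio -1.96 ± 0.23, adjusted p = 1.1e-14). Ftsj1, a tRNA methyltransferase, had 55.8 ± 4.94% in RepB and 82.4 ± 8.23% in WT (-1.74 ± 0.23, adjusted p = 1.3e-11). Hdac6, a deacetylase of tubulin and other cytoplasmic proteins, had among the deepest allelic counts, with 210 to 1683 reads a library in RepB and 386 to 2041 in WT. Its share was 55.2, 58.4, 65.2, 68.6, 72.4 and 77.6% at days 0, 5, 6, 7, 8 and 10 in RepB, and 56.5, 79.1, 89.0, 93.3, 92.0 and 94.7% in WT. Hdac6 was higher on each RepB day than on the one before and ended below the first later day of WT (log2 odds ratio -2.03 ± 0.17, adjusted p = 1.2e-31). Suv39h1, a histone methyltransferase of heterochromatin, had 59.0 ± 4.08% in RepB and 86.7 ± 7.03% in WT, from only 11 to 55 allelic reads a library (adjusted p = 0.0024). DESeq2 gave Suv39h1 no adjusted p.

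Of the 8 members listed for vesicle and membrane traffic, 7 had allelic data and 6 passed the share test as lower in RepB. The median gap over the 7 was -24.3 points. Gripap1, a protein of recycling endosomes, had 64.4, 68.8, 67.3, 55.1 and 55.8% over the later days in RepB, against 83.3, 91.7, 92.0, 91.8 and 96.6% in WT. The lines did not overlap, and the last 2 RepB days were the lowest of the 5 (log2 odds ratio -2.44 ± 0.36, adjusted p = 1.1e-09). Pcsk1n, which encodes an inhibitor of a prohormone convertase, had 64.1 ± 17.2% in RepB and 90.8 ± 5.16% in WT (adjusted p = 4.5e-05), and the RepB values ran from 35.3% to 79.0% on 12 to 78 reads. The call was lost by DESeq2 (adjusted p = 0.0923). Pcsk1n overlaps Eras in the annotation. Plp2, a small membrane protein of the endoplasmic reticulum, had the lowest mean share over the later days of the 27 genes in both lines. Its share was 35.8, 42.4, 43.2, 37.3, 43.5 and 46.9% at days 0, 5, 6, 7, 8 and 10 in RepB, and 35.0, 47.6, 47.8, 56.8, 56.9 and 55.0% in WT, from 175 to 1098 reads a library. Plp2 was therefore mostly mus in every RepB library and was slightly above even at days 7 to 10 in WT, and the lines differed by -10.2 points (-0.57 ± 0.15, adjusted p = 0.0054). That call was lost without day 7, by DESeq2, with libraries thinned to equal depth and without allele-by-day terms (adjusted p up to 0.413 over all alternatives). The mus copy of Plp2 gave 32.5 ± 6.84 CPM over the later days in RepB and 21.02 CPM in WT, against 35.8 CPM (RepB) and 39.8 CPM (WT) at day 0. Plp2 overlaps Prickle3 in the annotation.

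Among the 8 channels and transporters, 6 had allelic data and 4 passed the share test as lower in RepB. Clcn5, an endosomal chloride and proton exchanger, was the one most cas among them in RepB. Its share was 48.9, 83.0, 80.9, 85.7, 86.8 and 79.6% at days 0, 5, 6, 7, 8 and 10 in RepB, and 56.8, 87.9, 94.3, 97.2, 97.9 and 98.5% in WT. Both lines were far above day 0 by day 5, and no RepB value reached a later WT value (log2 odds ratio -2.11 ± 0.42, adjusted p = 3.9e-05). Clcn5 hosts 5 microRNA genes, Mir500, Mir501, Mir362, Mir188 and Mir532, and these had no count in any library. Slc35a2, the Golgi transporter of UDP-galactose, had 55.2 ± 7.36% in RepB and 85.9 ± 9.34% in WT (adjusted p = 3.5e-04), a call lost by DESeq2 and with libraries thinned to equal depth (adjusted p = 0.0902 and 0.077). Timm17b, a subunit of the inner membrane translocase of mitochondria, had 49.3 ± 5.73% in RepB and 76.6 ± 9.33% in WT (adjusted p = 5.8e-05). Its gap was -27.3 points and that of its divergent neighbour Pqbp1 -26.9 points.

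Of the 7 kinase, ubiquitin and signalling members, 4 had allelic data and 2, Otud5 and Pim2, passed the share test as lower in RepB. Otud5, a deubiquitinase, had 54.7, 61.7, 70.4, 60 and 55.1% over the later days in RepB, against 77.5, 90.6, 88.5, 91.4 and 92.6% in WT. The RepB values peaked at day 7 and never reached the lowest WT value (log2 odds ratio -2.22 ± 0.33, adjusted p = 1.5e-09). Of the 2 lipid and Wnt enzymes, Ebp, a sterol isomerase of cholesterol synthesis, passed as lower in RepB. Its share was 62.3 ± 7.65% in RepB and 83.9 ± 6.81% in WT (adjusted p = 9.3e-09). Porcn, the acyltransferase that adds lipid to Wnt proteins, did not pass. Dgkk, a diacylglycerol kinase that is in none of these lists, was nearly all cas in both lines, at 90.9, 90.9, 91.7, 89.1 and 91.5% in RepB, against 100, 96.9, 99.5, 95.8 and 97.3% in WT. It was almost silent at day 0, with 8 allelic reads in RepB and 10 in WT, so its starting share is poorly known. Its odds differed (-2.21 ± 0.49, adjusted p = 5.6e-04), although the call was lost without day 7 and by DESeq2 (adjusted p up to 0.125 over all alternatives).

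The 6 genes that did not pass were Prickle3, Eras, Xk, Wdr45, Porcn and Slc38a5. All had log2 odds ratios below 0, from -0.91 ± 0.71 (Porcn) to -2.50 ± 1.81 (Slc38a5), and all but Prickle3 had fewer than 10 allelic reads at day 10 in RepB. Prickle3, of the planar polarity family, had 76.0, 70.0, 81.6, 95.8 and 90.6% in RepB over the later days, from 20 to 38 reads, against 80.0, 82.2, 92.7, 96.8 and 97.8% in WT. The RepB value was lower on each day, but the ranges overlapped widely. Wdr45, an autophagy protein, had 68.9 ± 10.1% in RepB (n = 4 days) and 87.2 ± 7.48% in WT (n = 5 days). Xk, which carries a blood group antigen, had 58.9 ± 5.67% in RepB (n = 3 days) and 78.2 ± 2.81% in WT (n = 5 days). Eras, a Ras protein of ES cells, had 1 to 44 allelic reads on the later days in RepB and 5 to 192 in WT. Slc38a5, an amino acid transporter, had at most 8 on a later day in RepB and at most 9 in WT, so no later share was taken. The SEs of the 6 log2 odds ratios ran from 0.55 to 1.81, against 0.15 to 0.57 in the 22 genes that passed.

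Within each line the later days were also set against day 0. The cas share rose in 1 of 28 genes in RepB, Clcn5, where 1.25% of all genes rose, and in 27 of 28 in WT, where 4% of all genes rose. At an unadjusted p under 0.05 these counts were 6 in RepB and 28 in WT. The median log2 odds ratio of later days over day 0 was 0.68 in RepB and 2.64 in WT, and it was above 0 in 27 of 28 genes in RepB and in 28 of 28 in WT. In this test the spread between days is the error, and the RepB count was 4 without day 5, 2 without day 6 or day 8, and 4 in a fit with allele-by-day terms. The change of the genotype difference between day 0 and the later days was below 0 in 28 of 28 genes and passed in 9, Ccdc22, Gripap1, Pim2, Slc35a2, Pqbp1, Pcsk1n, Hdac6, Ebp and Ftsj1, where 0.949% of all genes passed. In a fit of days 5 to 10 the share had a slope above 0 per day in 0 of 28 genes in RepB, where 0.106% of all genes did, and in 8 of 28 in WT, where 1.18% did. The unadjusted counts were 2 in RepB and 18 in WT. The 8 in WT were Hdac6, Pqbp1, Rbm3, Wdr13, Clcn5, Ftsj1, Prickle3 and Gpkow, and the count was 0 without day 5, 5 without day 6 and 4 without day 10. The slope itself was lower in RepB than in WT in 0 of 28 genes, where 0.203% of all genes were lower, with 11 at an unadjusted p under 0.05.

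The time at which genes first reached a 75% cas share followed the same split. In RepB 4, 3, 1, 2 and 1 genes first reached it at days 5, 6, 7, 8 and 10, and 16 did on no day with a share. In WT 18, 6 and 2 genes first reached it at days 5, 6 and 7, and 1 did on no day. A share of 90% was reached on no day with a share by 24 of the 27 genes in RepB and by 6 in WT. Slc38a5 had no later share and is left out of these counts.

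The gap lay in the mus copies. The mus allele gave more output in RepB for 20 of 28 genes, where 2.14% of all 10332 genes were higher. The cas allele was higher in RepB for 0 of 28 genes, where 0.54% of all 10009 genes were, and lower for 1, Pim2, where 0.34% of all genes were. The unadjusted counts were 25 for higher mus, 0 for higher cas and 3 for lower cas output. On the log2(CPM + 0.5) scale the median gene stood 1.38 higher in RepB for mus, 2.60-fold, and at -0.09 for cas. The mus difference was above 0 in 28 of 28 genes and the cas difference in 11. By day the median mus difference was 0.96, 0.92, 1.37, 1.93 and 1.85. The 20 genes with higher mus output were all among the 22 with a lower cas share. Both tests use the same mus reads, so this overlap is no separate result. Over 26 genes with at least 10 mus reads at day 0, the median mus output at days 5, 6, 7, 8 and 10 was 61.4, 53.9, 45.7, 43.4 and 49.2% of its day 0 level in RepB, and 28.3, 21.3, 14.4, 8.13 and 9.24% in WT. The RepB mus median thus fell early and changed little after day 7, while the WT medians were lower still at days 8 and 10. The cas median, over 26 genes with at least 10 cas reads at day 0, was also below its day 0 level in RepB. It was 76.1% at day 5 and 74.6% at day 10, against 98.6 and 100.2% in WT, and 89.85 to 95.39% between those days in RepB. Summed over the 28 genes, mus output at day 5 was 113.2% of day 0 in RepB and 45.35% in WT. Without day 6, without day 7 and without day 10 the count of genes with higher mus output was 15, 14 and 13.

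**Figure D3:**
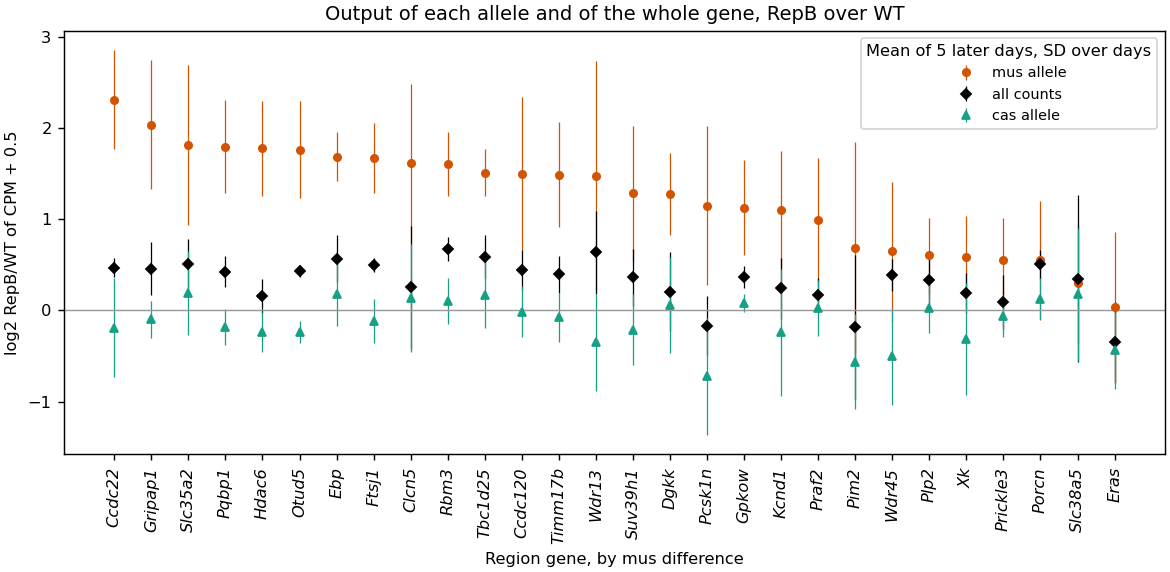
The log2 RepB/WT difference of CPM + 0.5 for mus reads, all counts and cas reads of each of the 28 genes, as the mean of the 5 later days with the SD over days, ordered by the mus difference. The mus points lie above 0 throughout, from 0.04 (Eras) to 2.31 (Ccdc22), and the cas points lie on both sides of 0.

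Examples show the range of retained mus output. For Gripap1 the mus allele gave 4.92, 4.79, 4.89, 3.69, 6.52 and 5.29 CPM in RepB, against 2.62, 2.03, 1.08, 0.628, 0.645 and 0.305 CPM in WT. Gripap1 thus kept its day 0 level in RepB, as Ccdc22 did. For Hdac6 the mus allele gave 48.8, 24.1, 15.9, 16.6, 17.2 and 13.4 CPM in RepB, against 49.5, 12.4, 4.81, 3.32, 4.00 and 2.54 CPM in WT, so that RepB lay between its day 0 level and that of WT. For Clcn5 it gave 3.04, 1.66, 2.52, 2.07, 2.07 and 5.29 CPM in RepB, against 3.01, 0.987, 0.812, 0.449, 0.129 and 0.305 CPM in WT. The mus copy of Clcn5 was thus higher at day 10 than at day 0 in RepB, while its cas copy gave 20.6 CPM in RepB and 20.5 CPM in WT at day 10.

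Counted over all reads, 12 of the 42 genes tested were higher in RepB over days 5 to 10, where 1.51% of all 15179 genes were higher, and 0 were lower, where 0.771% were. At an unadjusted p under 0.05 the counts were 21 higher and 0 lower, and DESeq2 called 13 higher and 0 lower. The median log2 difference over the 42 was 0.41, and -0.0019 over all genes tested. The 12 were Rbm3, Wdr13, Ebp, Tbc1d25, Porcn, Slc35a2, Ftsj1, Ccdc22, Ccdc120, Otud5, Pqbp1 and Timm17b. Of these, 11 also had a lower cas share, and Porcn did not pass that test. At day 0 the total difference was above 0 in 21 of the 42 genes and below 0 in 21, with a median log2 of -0.0087. For Pqbp1 the log2 difference was 0.49 at day 0 and 0.42 later, so it did not arise over the later days. For Rbm3 it was -0.58 at day 0 and 0.68 later. No result is given here for the change of total output from day 0. In 22 of the 42 genes total output was higher in RepB on 5 of 5 days, a count with no share over all genes beside it. The adjusted calls rested on all days together: 4 genes passed without day 5, 1 without day 6, day 7 or day 10, and 15 without day 8. Rbm3 was the gene that passed in each case.

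Rbm3, an RNA-binding protein induced by cold, had 34.8, 70.2, 49.8, 43.3, 37.4 and 27.8 CPM at days 0, 5, 6, 7, 8 and 10 in RepB, against 52.0, 43.5, 32.7, 27.6, 19.99 and 19.0 CPM in WT. It was lower in RepB at day 0 and higher on each later day, 1.60-fold on average (log2 0.68 ± 0.09, SE, adjusted p = 0.0056). Rbm3 overlaps Rbm3os, which averaged 0.438 CPM in RepB and 0.547 CPM in WT over the later days. Ebp had 43.5, 58.8, 46.8, 39.4 and 24.8 CPM on the later days in RepB, against 28.8, 31.6, 28.5, 34.4 and 17.8 CPM in WT (log2 0.59 ± 0.11, adjusted p = 0.019). Its lines were close at day 0, at 70.8 CPM in RepB and 68.5 CPM in WT. Otud5 had 390.1, 359.2, 300.5, 317.2 and 294.0 CPM in RepB, against 287.5, 262.5, 239.3, 231.7 and 208.0 CPM in WT (0.43 ± 0.07, adjusted p = 0.012). Every Otud5 value of RepB lay above every value of WT. Ccdc22 had 71.3, 76.6, 78.3, 70.5 and 57.4 CPM in RepB, against 49.9, 61.5, 52.3, 52.5 and 39.9 CPM in WT (0.47 ± 0.08, adjusted p = 0.016), and had already been at 53.1 CPM in RepB and 42.3 CPM in WT at day 0. Wdr13, a nuclear WD-repeat protein, and Slc35a2 were the called genes whose RepB output was highest at day 10 with day 0 counted. At day 10 Wdr13 had 53.5 CPM in RepB against 34.5 CPM in WT, and Slc35a2 48.5 CPM in RepB against 29.6 CPM in WT. Tbc1d25, an activator of Rab hydrolysis in autophagy, Porcn and Ftsj1 were 1.49, 1.46 and 1.41 times as high in RepB as in WT.

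**Figure D4:**
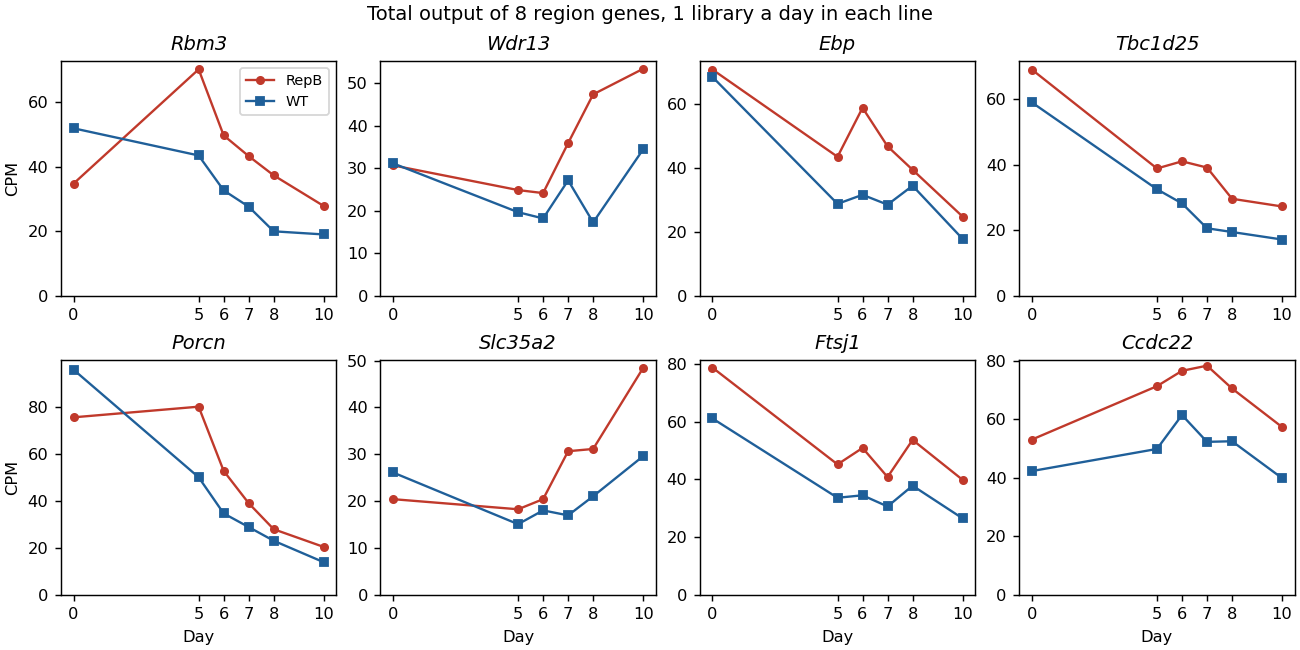
Total output in CPM by day of differentiation of the 8 region genes with the largest total difference among those past the test, with RepB as red circles and WT as blue squares, 1 library per point. RepB lies above WT on each later day in all 8, for example at 27.8 CPM against 19.0 CPM at day 10 for Rbm3.

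The most abundant members did not all follow. Suv39h1 had 81.8, 106.2, 255.8, 404.0 and 225.0 CPM over the later days in RepB, against 79.2, 81.3, 174.5, 236.8 and 216.5 CPM in WT, and did not pass (0.37 ± 0.11, adjusted p = 0.12). Both lines were highest at day 8, from 42.4 CPM (RepB) and 63.4 CPM (WT) at day 0. Hdac6, which had the smallest p in the share test, had total output of 146.1 ± 15.1 CPM in RepB and 130.8 ± 11.9 CPM in WT (0.16 ± 0.09, adjusted p = 0.45). Pim2, a serine and threonine kinase of cell survival, was present as a pulse. It had 59.5, 1141, 511.5, 91.3, 29.9 and 18.9 CPM at days 0, 5, 6, 7, 8 and 10 in RepB, against 67.5, 788, 503.5, 183.0, 62.4 and 12.7 CPM in WT. RepB was the higher line at days 5, 6 and 10 and the lower at days 7 and 8, and total output did not pass (-0.19 ± 0.22, adjusted p = 0.75). At the pulse, the mus copy of Pim2 gave 126.7 CPM in RepB and 34.6 CPM in WT, and the cas copy 166.5 CPM in RepB and 168.1 CPM in WT. Its cas share was 56.8, 62.7, 71.6, 80.8 and 60% in RepB, the last 2 from 26 and 15 reads, against 82.9, 85.2, 87.5, 77.8 and 84.2% in WT (log2 odds ratio -1.72 ± 0.16, adjusted p = 1.4e-25). Per kilobase of exon Pim2 was also the most abundant member, at a mean of 175.6 CPM per kilobase in RepB and 151.9 in WT over the later days, followed by Pqbp1 at 99.8 in RepB and 74.6 in WT. The SD of Pim2 over days was larger than its mean in both lines.

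Other X-linked genes moved the same way, by less over the later days as a whole. At day 6 alone the gap between the lines' medians was as large, at -19.1 points in the region and -19.9 points in the other X-linked genes. The mean cas share over the later days was lower in RepB than in WT by a median of 21.7 points in the 27 region genes and by 14.1 points in 301 other X-linked genes, and was 0.19 points higher in RepB in 3181 autosomal genes. A gap of 20 points or more was seen in 16 of 27 region genes (59.3%) and in 81 of 301 other X-linked genes (26.9%). In RepB the median share of the region was 62.9 ± 3.85% and that of the other X-linked genes 70.2 ± 5.36%. In WT they stood at 87.3 ± 5.33% and 88.4 ± 6.05%. The median mus difference was 1.38 in the region and 0.87 in the other X-linked genes on the log2 scale, and that of total output 0.38 and 0.22. The share test called 155 of 303 other X-linked genes (51.2%), the total test 70 of 521 (13.4%) and the mus test 139 of 303 (45.9%). Of 12 windows of the X of 3.2 Mb with at least 10 genes with allelic data, the one from 6000000 to 9199999, which also takes in the genes left out by name, had the most negative median gap, -22.9 points. The next were -19.5 points for both the window from 70000000 to 73199999 and that from 18800000 to 21999999. The difference between the region and the rest of the X was not tested, so these are descriptions.

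**Figure D5:**
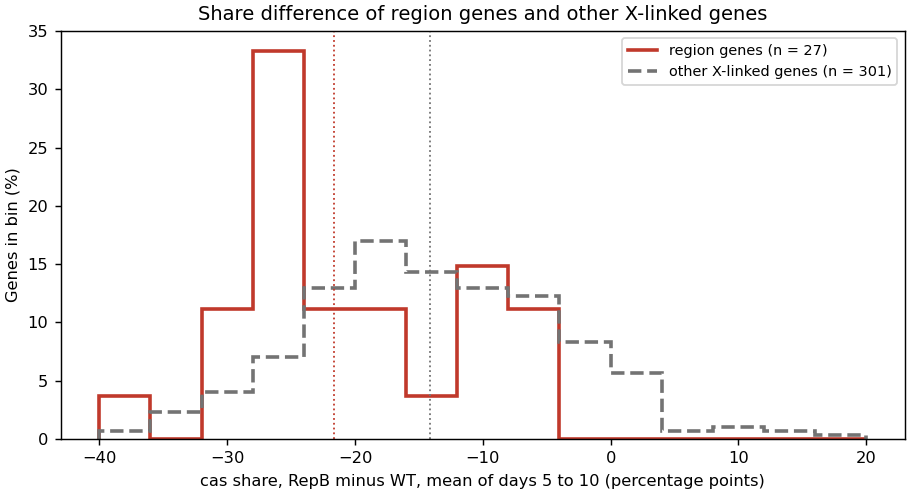
Percentage of genes per bin of the RepB minus WT difference in mean cas share over days 5 to 10 (percentage points, bins of 4), for the 27 region genes (solid red) and 301 other X-linked genes (dashed grey), with dotted lines at the medians of -21.7 and -14.1 points. Region genes span -36.1 to -6.0 points and other X-linked genes -37.6 to 16.2 points.

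Within the region the share differed with position and with the starting share. Across 27 genes the listed start and the mean later share had a Spearman rho of -0.43 in RepB and -0.60 in WT, with Dgkk and Clcn5 at the low end of the coordinates highest in both. The later shares of the lines were related across genes, with rho 0.66. The WT day 0 share had rho 0.80 with the later RepB share and 0.46 with the later WT share, and 0.58 with the gap, so that genes that began more cas had smaller gaps. The total output difference had rho -0.59 with the gap, so that genes with a larger allelic gap had the larger total difference. Genes are not independent replicates, and all of these values come from the same libraries.

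The remaining members were mostly silent. The 19 with no count included the Ssxb genes, Akap4 and the microRNAs in Clcn5. Of the blood cell genes of the region, Was averaged 3.82 CPM in RepB and 2.13 CPM in WT over the later days, and Cybb 2.94 CPM in RepB and 2.13 CPM in WT, and neither passed the total test. Usp27x, a deubiquitinase, was higher in RepB on 5 of 5 days at 19.2 ± 4.495 CPM, against 13.6 ± 2.32 CPM in WT, and did not pass (log2 0.46 ± 0.14, adjusted p = 0.13).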

How the data were processed

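The authors deposited 1 table of whole-number counts per gene, not normalized, with total counts and counts of reads assigned to the cas and mus alleles for each RNA library. The deposited exon length in bases, the other unit, was used only for levels per kilobase. Per the submitters' processing notes, mm9, Novoalign, TopHat, SAMtools, bedtools and featureCounts were used; versions, roles and the strand setting are not given in the sources used here. A further 6 count columns matched no RNA sample and were not used, and the other 21 samples of the series, ChIP, input and fibroblast samples, were not analysed here. CPM divides a total or allelic count by its library's total times its TMM factor, scaled to a common depth. A gene entered the allele comparison from an average of 20 allelic counts over the 12 libraries, and a library from 10 for that gene. Binomial intervals are 95% Clopper-Pearson (exact) and, like the floors, take in counting error alone.

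Total, cas and mus counts were tested over all genes with edgeR 4.0.16 in R 4.3.3 (TMM factors of the total counts, quasi-likelihood F test, Benjamini-Hochberg adjustment over all genes tested, threshold 0.05). SE is the size of the log2 value divided by the square root of F. Share tests between the lines used the interaction of allele with genotype, with days as blocks and 4 residual degrees of freedom. The tests of later days against day 0 within a line had 8 and the slope tests 6, and neither had days as blocks. The error of the share tests between the lines was in effect estimated over all genes tested. A gene's own spread over days thus had little weight in them. Checks on simulated data covered the fit of total output and the share test between the lines over the later days. Descriptions used Python 3.11.15 with pandas 2.3.3 and scipy 1.17.1, and figures matplotlib 3.10.9. Alternatives covered the allelic minimum, normalization, DESeq2 1.42.0, depth, and each day left out. RefSeq promoter windows came with GRCm38.p6.

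The members, role lists and tests were chosen with earlier results of these data known. The genes named were the 10 with the largest log2 odds ratio among those past the share test and averaging 100 allelic counts or more, those that missed it, up to 8 past the total test, up to 6 most abundant, and Clcn5 and Ccdc22. Timm17b, Plp2, Ebp, Slc35a2 and Usp27x were further described after their values were seen.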

Additional observations from a re-analysis of the deposited data

Results flagged for a closer look

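For 9 genes the difference between RepB and WT in the log2 odds of the cas allele was itself different between days 5 to 10 and day 0, by a test of that change (edgeR quasi-likelihood, adjusted over all genes tested). The change was -2.98 for Ccdc22, -2.55 for Gripap1, -1.34 for Pim2 and -3.21 for Slc35a2. It was -2.20 for Pqbp1, -2.35 for Pcsk1n, -1.96 for Hdac6, -1.76 for Ebp and -1.43 for Ftsj1. At day 0 the log2 odds of the 9 differed between the lines by at most 0.85, the value for Slc35a2. Day 0 was 1 library in each line, and the reason for the change was not tested.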

How the results depend on the processing

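Of 142 alternative values of the main counts and medians, 122 kept their direction and stayed within 1.5 times the count, or within 1 SD over days of the median, and 20 moved. The count of genes with a lower cas share in RepB was 22, was 12 by DESeq2, which gave 2 genes no adjusted p, 15 with libraries thinned to equal depth and 20 without allele-by-day terms, and ran from 18 to 21 with single days left out; 12 genes passed under all 13 alternatives. The count of genes with a risen share in RepB was 1, was 4 with allele-by-day terms (an alternative chosen after seeing the data) and 3 with libraries thinned to equal depth, and ran from 1 to 4 with single days left out. That of WT slopes above 0 was 8, was 1 after thinning and ran from 0 to 8. The count with higher total output was 12 and ran from 1 to 15. The count with higher mus output was 20, ran from 13 to 20 with single days left out and was 22 among X-linked and both-allele genes only, and that with lower cas output was 1, ran from 0 to 2, and was 0 among those genes only, also chosen after seeing the data. The median cas log2 difference was -0.09 and ran from -0.12 to -0.042. Of single genes, the total difference with a day left out ran from -0.030 (without day 8) to 0.33 for Clcn5 and from -0.43 to 0.034 (without day 7) for Pim2, turning round in each. The cause of these shifts was not tested. The labels give no replicate numbers, and the lines were paired by day in the tests themselves. Few allelic reads in later RepB libraries limit Eras, Xk, Wdr45, Porcn and Slc38a5.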
